A study of Homo sapiens with 24 samples.

Results

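NFKBIA, NFKBIE, BIRC3, IKBKE and TANK are 5 genes of the NF-kB pathway, taken here by name from a table of 9822 genes. All 5 were in the table and all 5 passed the filter on low counts. They were chosen by their change with SK-3-91 relative to DMSO, known from earlier results of these data, so those values are given as a description, with no test. The libraries come from MOLT4, an established human T-cell acute lymphoblastic leukaemia line grown in RPMI1640 medium with serum. Cells received SK-3-91 or the solvent DMSO. SK-3-91 is labelled as a pan-kinase degrader, a type of molecule that binds kinases and directs them to proteolysis. Harvest at 1, 4 and 8 h gives 3 SK-3-91 groups and 3 DMSO groups of 4 libraries each, 24 in all. The labels used here state no dose, and they leave unsaid whether replicates came from separate cultures. The p-values therefore measure only spread between samples that may be technical.

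NF-kB is a family of dimeric transcription factors that inhibitor proteins, the IkBs, hold inactive in the cytoplasm. Signals from TNF-family, Toll-like and antigen receptors pass through TRAF and IAP ubiquitin ligases to the IkB kinases, which mark the IkBs for destruction and free the dimers to enter the nucleus. NFKBIA (IkB-alpha) and NFKBIE (IkB-epsilon) encode such inhibitors and are themselves NF-kB target genes, as is BIRC3, which encodes the ubiquitin ligase cIAP2. IKBKE encodes IKK-epsilon, a kinase related to the IkB kinases, and TANK encodes an adaptor that binds IKK-epsilon, its relative TBK1 and TRAF proteins. In T-cell leukaemia the pathway is known as a survival signal that can be driven by Notch and antigen-receptor signalling.

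The start regions of these genes are shown because NFKBIA and BIRC3 are textbook targets bound by NF-kB close to the start site. Each stretch is a RefSeq promoter window of build GRCh38.p14 (the counts were made on hg19, and no coordinates were moved between builds), from 250 bases before to 50 bases after the annotated start, written 5′ to 3′ on the gene's strand. Entries were found for 4 of the 5 genes, and for NFKBIE only its name is given. Capitals mark a match to the kappaB consensus, which reads 3 G, a purine, 2 bases of any kind, 2 pyrimidines and 2 C, searched on both strands; every match lay on the strand opposite to the gene, so it appears here as its reverse complement.
NFKBIA, chr14:35404700-35404999, minus strand: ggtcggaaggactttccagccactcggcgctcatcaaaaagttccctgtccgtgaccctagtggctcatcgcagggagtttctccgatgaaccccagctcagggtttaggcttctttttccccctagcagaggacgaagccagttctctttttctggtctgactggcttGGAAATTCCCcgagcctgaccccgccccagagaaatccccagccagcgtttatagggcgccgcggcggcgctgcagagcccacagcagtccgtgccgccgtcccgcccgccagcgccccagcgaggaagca
BIRC3, chr11:102317234-102317533, plus strand: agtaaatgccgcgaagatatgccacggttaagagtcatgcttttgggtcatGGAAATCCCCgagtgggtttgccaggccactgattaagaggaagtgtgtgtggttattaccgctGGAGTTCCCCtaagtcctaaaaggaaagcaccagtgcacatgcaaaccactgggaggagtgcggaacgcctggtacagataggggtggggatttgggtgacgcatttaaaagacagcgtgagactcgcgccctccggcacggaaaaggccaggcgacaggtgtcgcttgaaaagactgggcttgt
IKBKE, chr1:206470226-206470525, plus strand: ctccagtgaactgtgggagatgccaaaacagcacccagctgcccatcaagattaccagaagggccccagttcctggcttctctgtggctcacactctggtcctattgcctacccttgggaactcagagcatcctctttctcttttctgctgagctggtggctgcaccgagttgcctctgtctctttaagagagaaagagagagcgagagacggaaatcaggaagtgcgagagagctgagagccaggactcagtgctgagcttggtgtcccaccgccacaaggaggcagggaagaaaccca
TANK promoter 1, chr2:161136713-161137012, plus strand: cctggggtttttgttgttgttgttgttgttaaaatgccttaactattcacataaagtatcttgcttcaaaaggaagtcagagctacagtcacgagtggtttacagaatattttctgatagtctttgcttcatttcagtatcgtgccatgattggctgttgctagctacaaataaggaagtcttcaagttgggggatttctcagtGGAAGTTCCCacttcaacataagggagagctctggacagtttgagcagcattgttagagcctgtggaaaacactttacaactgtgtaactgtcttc
TANK promoter 2, chr2:161160178-161160477, plus strand: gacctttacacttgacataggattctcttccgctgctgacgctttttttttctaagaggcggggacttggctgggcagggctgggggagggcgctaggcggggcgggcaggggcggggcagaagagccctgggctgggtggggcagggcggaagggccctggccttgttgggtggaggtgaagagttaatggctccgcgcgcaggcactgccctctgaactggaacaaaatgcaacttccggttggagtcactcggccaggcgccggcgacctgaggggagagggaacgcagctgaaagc

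NFKBIA had 1 match, 81 to 72 bases before the start. BIRC3 had 2 matches, at 199 to 190 and at 135 to 126 bases before it. TANK had 1 match at 46 to 37 bases before the start of its first promoter and 0 in its second, and IKBKE had 0. Across all RefSeq promoters of this length, 3933 of 34943 (11.3%) held at least 1 match and 711 (2.03%) held 2 or more. Of the promoters of genes in the count table, 1510 of 11615 held at least 1 and 248 held 2 or more. A match is a run of letters and not a bound site, and its absence says only that these letters are not in this window.

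The libraries held 6.863 to 14.63 megareads counted in genes. SK-3-91 totals were 96.2% of the DMSO totals at 1 h, 74.7% at 4 h and 58.3% at 8 h, and SK-3-91 at 8 h replicate 3 was the shallowest library. Levels are read counts scaled to library size (CPM) with TMM factors, which centre most genes on no change, so a change is one of a gene's share and not of copies in a cell; fewer cells and less RNA per cell cannot be told apart in such data. All genes had a median log2 fold change of 0.01, -0.05 and -0.11 at 1, 4 and 8 h, and leaving out the scaling factors moved it by -0.02, -0.30 and -0.43. T-lineage markers were measured for 12 of 12 genes, with summed levels of 3714 to 4409 CPM with SK-3-91 and 3450 to 3691 CPM with DMSO at 8 h. By edgeR's test 3 of these 12 genes were higher and 8 lower at 8 h, where 41.3% and 48.1% of all genes were. The calls were 7 and 1 at 1 h (24.9% and 29.4% of all genes) and 6 and 5 at 4 h (42% and 45.9%). Their 8 h log2 changes ran from CD2 at -3.78 to CD7 at 1.25, with a median of -0.90. Without scaling factors 2 were higher and 10 lower at 8 h (median -1.33), and 4 and 7 at 4 h (median -0.26). Of the markers of other cells, CD79A (1 of 6 B-cell markers), CD68 (1 of 6 myeloid) and PECAM1 (1 of 5 fibroblast or endothelial) were in the table, with 0 of 4 erythroid and 0 of 4 epithelial ones. At 8 h CD79A had 23.3 to 30.5 CPM with SK-3-91 and 6.35 to 10.4 CPM with DMSO, CD68 had 5.24 to 7.75 and 1.42 to 2.50 CPM, and PECAM1 had 15.7 to 20.8 and 42.7 to 43.7 CPM. The part of depth and of these markers in the results below was not tested.

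At 1 h, both inhibitors and BIRC3 stood more than 2-fold below DMSO with SK-3-91, TANK was modestly lower, and IKBKE was slightly higher. In 4 of the 5 genes all 4 SK-3-91 libraries lay below all 4 DMSO libraries, where 28.2% of all genes did so. IKBKE lay above without overlap, as 22.8% of all genes did. By 4 h all 5 genes lay below DMSO without overlap, against 43.7% of all genes. At 8 h NFKBIA, NFKBIE and IKBKE lay below without overlap, against 45.1% of all genes, TANK lay above (though not without scaling factors), against 38.8%, and BIRC3 overlapped. Since these contrasts chose the genes, the background shares are printed for scale and nothing is read from them.

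**Figure D1:**
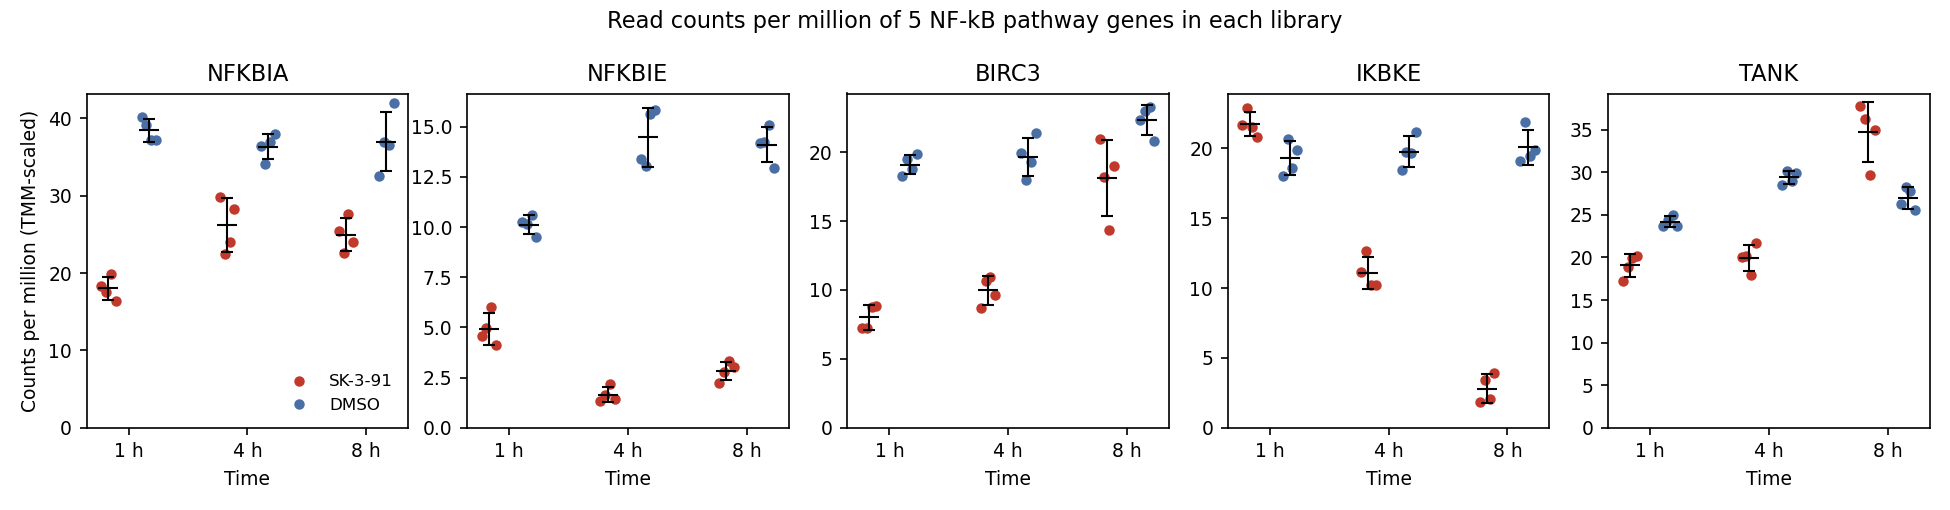
CPM (linear axis, TMM-scaled) of each gene in each library by time, SK-3-91 in red left of DMSO in blue; points are libraries, and bars give the mean and SD of 4. NFKBIE at 4 h (1.66 CPM with SK-3-91, 14.5 CPM with DMSO) and IKBKE at 8 h (2.80 CPM with SK-3-91, 20.1 CPM with DMSO) have the largest fold changes, and the BIRC3 groups overlap at 8 h.

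NFKBIA (Entrez 4792), the inhibitor that NF-kB resynthesises as a brake on itself, was lowest at the first time point with TMM scaling. At 1 h it had 18.3, 17.5, 19.9 and 16.4 CPM in SK-3-91 replicates 1 to 4, against 40.2, 39.1, 37.2 and 37.3 CPM in DMSO. At 4 h the SK-3-91 libraries held 29.9, 22.5, 24.1 and 28.3 CPM, against 36.4, 34.1, 37.0 and 38.0 CPM in DMSO. At 8 h the values were 25.4, 22.6, 27.7 and 24.1 CPM with SK-3-91, against 32.6, 36.9, 36.6 and 41.9 CPM with DMSO. The groups did not overlap at any time, with or without scaling factors. With TMM scaling the gap was clearly widest at 1 h. The log2 fold change was -1.09 ± 0.08 (SE) at 1 h, -0.47 ± 0.08 at 4 h and -0.58 ± 0.08 at 8 h, or 2.13-fold, 1.39-fold and 1.49-fold lower. Leaving out the scaling factors brought the 8 h loss (-1.01 ± 0.08) close to the 1 h loss (-1.12 ± 0.07). The 4 h loss was then -0.77 ± 0.08. The easing seen at 8 h with TMM thus rested largely on the scaling. Within SK-3-91 alone and with TMM scaling, the 4 h libraries stood 0.54 ± 0.09 higher on the log2 scale than the 1 h ones. The 8 h libraries differed from the 4 h ones by -0.08 ± 0.09. These steps within SK-3-91 were not examined without scaling factors.

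NFKBIE (Entrez 4794), a second cytoplasmic inhibitor that favours dimers with RELA and REL, was the lowest of the 5 relative to DMSO at 4 h. Its 1 h values were 4.56, 4.97, 6.003 and 4.13 CPM in SK-3-91 replicates 1 to 4, against 10.2, 10.1, 10.6 and 9.49 CPM in DMSO. Those at 4 h were 1.36, 1.66, 2.19 and 1.43 CPM with SK-3-91, which is 13 to 21 reads per library, against 13.4, 13.04, 15.6 and 15.8 CPM with DMSO. At 8 h SK-3-91 libraries held 2.25, 2.76, 3.32 and 3.04 CPM (16 to 21 reads), against 14.2, 14.2, 15.1 and 12.9 CPM in DMSO. All 4 SK-3-91 libraries lay below all 4 DMSO libraries at every time, and the SK-3-91 values were lower at 4 h than at 1 h. The log2 fold change was -1.04 ± 0.11 (SE) at 1 h, -3.12 ± 0.15 at 4 h and -2.32 ± 0.15 at 8 h, or 2.06-fold, 8.68-fold and 5.002-fold lower. Ranked from the lowest of 9822 genes, it stood 297th at 1 h, 79th at 4 h and 501st at 8 h, so at 8 h more genes were lower still. The few reads at 4 and 8 h limit how finely it can be ranked there.

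BIRC3 (Entrez 330) encodes the cIAP2 ligase that attaches ubiquitin to RIPK1 at TNF receptors. With TMM scaling BIRC3 was far below DMSO at first and close to it at the end. At 1 h it had 7.26, 7.22, 8.73 and 8.87 CPM in SK-3-91 replicates 1 to 4, against 18.3, 19.5, 18.8 and 19.8 CPM in DMSO. At 4 h it had 8.67, 10.7, 10.9 and 9.61 CPM with SK-3-91, against 19.96, 18.0, 19.3 and 21.4 CPM with DMSO. The 8 h values were 20.9, 18.2, 14.4 and 19.0 CPM with SK-3-91, against 22.3, 23.0, 23.3 and 20.8 CPM with DMSO. Replicate 1 with SK-3-91 lay above the lowest DMSO library at 8 h, so the groups overlapped there, and replicate 3, the shallowest, was the lowest. The log2 fold change was -1.25 ± 0.09 (SE) at 1 h, -0.98 ± 0.09 at 4 h and -0.29 ± 0.09 at 8 h, or 2.38-fold, 1.97-fold and 1.22-fold lower. Without SK-3-91 at 8 h replicate 3, the 8 h value was -0.21 ± 0.09. Without scaling factors it was -0.72 ± 0.09, and the groups then stood apart, with 11.4 to 16.7 CPM in SK-3-91 and 22.4 to 25.2 CPM in DMSO. The 1 h and 4 h values were then nearly equal, at -1.27 ± 0.09 and -1.28 ± 0.09.

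IKBKE (Entrez 9641), the kinase that phosphorylates IRF3 and IRF7 and can act on NF-kB subunits, followed the opposite course in time to BIRC3. At 1 h it had 21.7, 22.9, 21.6 and 20.8 CPM in SK-3-91 replicates 1 to 4, against 18.0, 20.7, 18.6 and 19.9 CPM in DMSO. At 4 h it had 11.2, 12.7, 10.2 and 10.2 CPM with SK-3-91, against 18.5, 19.8, 19.7 and 21.2 CPM with DMSO. By 8 h SK-3-91 libraries held 1.83, 3.45, 2.03 and 3.91 CPM (11 to 27 reads), against 19.1, 21.9, 19.5 and 19.9 CPM in DMSO. The 1 h groups were only just apart, and without scaling factors they overlapped, at 22.3 to 24.6 CPM in SK-3-91 and 19.6 to 22.5 CPM in DMSO. The log2 fold change was 0.17 ± 0.07 (SE) at 1 h, -0.84 ± 0.09 at 4 h and -2.82 ± 0.14 at 8 h, or 1.13-fold higher, 1.79-fold lower and 7.04-fold lower. Within SK-3-91 alone, 8 h differed from 4 h by -1.96 ± 0.16 on the log2 scale, which placed IKBKE 9th from the lowest of 9822 genes in that step. This rank rests on the 11 to 27 reads per library at 8 h, which limits how finely such levels can be ranked. The SK-3-91 libraries also chose the gene.

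TANK (Entrez 10010), the adaptor that brings IKK-epsilon and TBK1 to TRAF proteins, was the one gene of the 5 that ended above DMSO, with TMM scaling though not without scaling factors. At 1 h it had 17.2, 18.9, 19.99 and 20.1 CPM in SK-3-91 replicates 1 to 4, against 23.6, 24.4, 25.0 and 23.7 CPM in DMSO. At 4 h the values were 20.1, 20.1, 17.9 and 21.7 CPM with SK-3-91, against 28.5, 30.1, 29.01 and 29.97 CPM with DMSO. At 8 h they were 37.8, 36.3, 29.7 and 34.9 CPM with SK-3-91, against 26.3, 28.3, 27.8 and 25.6 CPM with DMSO. The groups did not overlap at any time, with SK-3-91 below at 1 and 4 h and above at 8 h, where replicate 3 was again its lowest library. The log2 fold change was -0.34 ± 0.07 (SE) at 1 h, -0.56 ± 0.07 at 4 h and 0.37 ± 0.07 at 8 h, or 1.27-fold lower, 1.47-fold lower and 1.29-fold higher. The 8 h direction rested on the scaling: without scaling factors the value was -0.06 ± 0.07, with 23.5 to 30.2 CPM in SK-3-91 and 27.6 to 30.8 CPM in DMSO, and the groups overlapped.

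**Figure D2:**
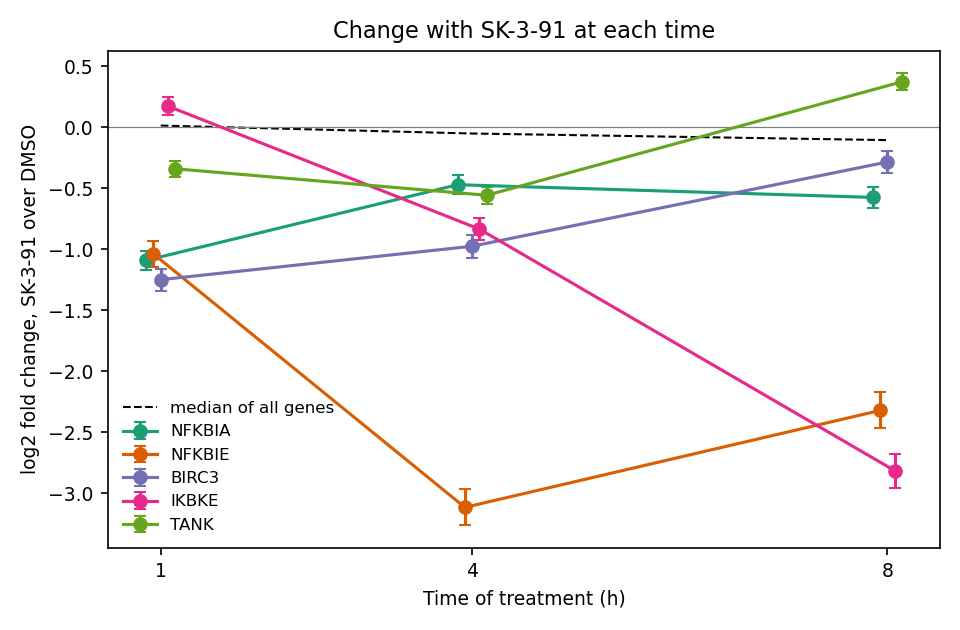
log2 fold change of SK-3-91 over DMSO (TMM-scaled) against hours of treatment for the 5 genes; error bars are 1 SE, points are set slightly apart for legibility, and the dashed line is the median of all genes. NFKBIA and BIRC3 are lowest at 1 h (-1.09 and -1.25), NFKBIE at 4 h (-3.12) and IKBKE at 8 h (-2.82). TANK ends at 0.37, a direction that was not kept without scaling factors. Without those factors BIRC3 stood at -1.27 at 1 h and -1.28 at 4 h, and NFKBIA at -1.12 at 1 h and -1.01 at 8 h.

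**Figure D3:**
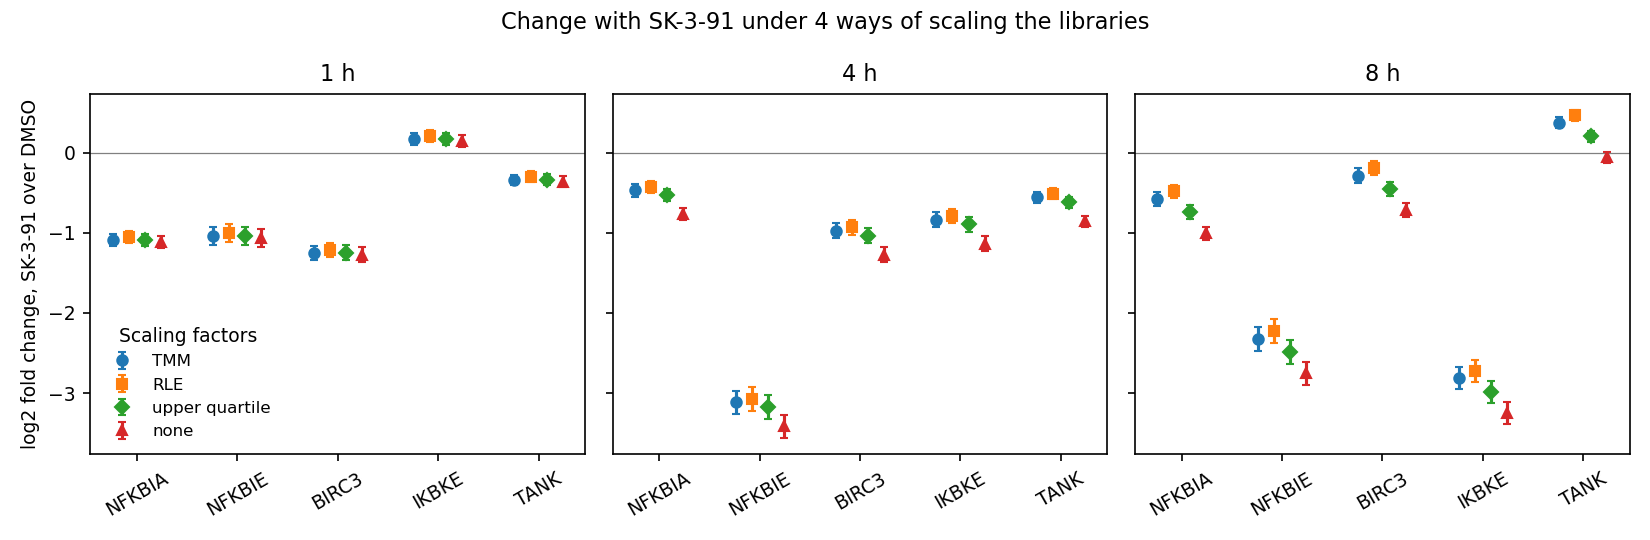
log2 fold change of SK-3-91 over DMSO for the 5 genes at each time scaled by TMM, by RLE, by upper quartiles or without factors, with bars of 1 SE. At 1 h the choices nearly coincide; at 8 h TANK lies at 0.37 with TMM factors and at -0.06 without factors, while NFKBIE and IKBKE stay more than 2 log2 units below 0 under each choice.

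The 2 genes with the largest losses did not share a time course. NFKBIE was already 2.06-fold lower at 1 h and stood above its 4 h level at 8 h within SK-3-91, by 0.76 ± 0.24 on the log2 scale. IKBKE had no loss at 1 h and stood further below DMSO at 8 h than at 4 h. Over the 6 group means of log2 CPM, each centred on its own mean, the root mean square distance between members was smallest for NFKBIA and BIRC3 (0.29) and largest for IKBKE and TANK (1.24). BIRC3 and TANK lay 0.35 apart, and NFKBIA and TANK 0.38.

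The same distance was used to name the 3 genes nearest to each member among 9545 genes with at least 5 CPM in their highest group. It is a description over 6 groups that share libraries and scaling. Nearest to NFKBIA were ZNF217 (0.08), IFRD1 (0.13) and SSH2 (0.14), and nearest to NFKBIE were TMEM186 (0.15), ZNF790 (0.19) and FAM200A (0.19). MIDN (0.13), OBI1 (0.14) and PLK3 (0.14) were nearest to BIRC3. TCEAL9 (0.09), VPS25 (0.10) and RFC2 (0.11) were nearest to IKBKE, and ZNF286B (0.06), MYBL1 (0.07) and SPSB2 (0.07) to TANK. None of these 15 genes stood in the pathway lists below.

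Levels of different genes can be compared only per length, so RPKM values (reads scaled to gene length and library size) were computed from the counts and the deposited gene widths. In DMSO at 1 h NFKBIA was the highest of the 5, at 22.8 ± 0.86 RPKM (SD, n = 4). It was followed by TANK at 9.61 ± 0.26, IKBKE at 4.60 ± 0.29, NFKBIE at 3.75 ± 0.17 and BIRC3 at 2.69 ± 0.10 RPKM, with no overlap between neighbours. In DMSO at 4 and 8 h NFKBIE and IKBKE overlapped, at 5.36 ± 0.54 and 4.72 ± 0.26 RPKM at 4 h. With SK-3-91 at 8 h the order had changed. NFKBIA (14.8 ± 1.27 RPKM) and TANK (13.8 ± 1.40 RPKM) then overlapped at the top, BIRC3 stood at 2.56 ± 0.39 RPKM, and NFKBIE (1.05 ± 0.17 RPKM) and IKBKE (0.67 ± 0.25 RPKM) overlapped at the bottom.

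The DMSO libraries alone show how the 5 genes moved with time in solvent. This contrast did not choose the genes, though it shares the DMSO libraries with the contrasts that did. Between 4 h and 1 h, 2 of the 5 rose and 0 fell by edgeR's quasi-likelihood test with Benjamini-Hochberg adjustment over all genes, where 16% of all genes rose and 19.1% fell. NFKBIE averaged 14.5 ± 1.46 CPM at 4 h and 10.1 ± 0.47 CPM at 1 h (SD, n = 4 each), a log2 change of 0.51 ± 0.09 (edgeR adjusted p = 1.34e-05, higher in 4 of 4 libraries). TANK averaged 29.4 ± 0.75 CPM at 4 h and 24.2 ± 0.65 CPM at 1 h, a log2 change of 0.28 ± 0.06 (edgeR adjusted p = 0.000432, higher in 4 of 4 libraries). Both had all 4 h libraries above all 1 h libraries, as 16.3% of all genes did. Over 12 alternative settings the adjusted p ran from 2.15e-06 to 0.000882 for NFKBIE and from 5.43e-05 to 0.00911 for TANK, all past the threshold of 0.05. NFKBIA, BIRC3 and IKBKE had log2 changes of -0.08 ± 0.07, 0.04 ± 0.08 and 0.03 ± 0.07 (edgeR adjusted p = 0.38, 0.722 and 0.765).

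Between 8 h and 4 h of DMSO, 0 of the 5 passed, where 30.7% of all genes did; by the same edgeR test 1 of the 5, BIRC3, had an unadjusted p under 0.05. BIRC3 averaged 22.3 ± 1.10 CPM at 8 h and 19.6 ± 1.40 CPM at 4 h, a log2 difference of 0.19 ± 0.07 (edgeR unadjusted p = 0.0166, adjusted p = 0.0528). Across the alternatives its adjusted p ran from 0.0237 to 0.316, and it passed without replicate 4 (0.0237) and when only these 2 groups were fitted (0.0428). TANK had 26.3, 28.3, 27.8 and 25.6 CPM at 8 h and 28.5, 30.1, 29.01 and 29.97 CPM at 4 h. Its groups did not overlap, as for 14.5% of all genes in that direction, but the log2 difference of -0.12 ± 0.06 did not pass (edgeR adjusted p = 0.125). NFKBIA, NFKBIE and IKBKE differed by 0.03 ± 0.07, -0.04 ± 0.08 and 0.02 ± 0.07 (edgeR adjusted p = 0.807, 0.774 and 0.833).

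Other genes of the pathway, in 9 lists of 116 genes without the 5, were in the table for 70. By edgeR's test at an adjusted p under 0.05 over all genes, 9 were higher and 29 lower with SK-3-91 at 1 h, 23 and 33 at 4 h, and 27 and 37 at 8 h. Of all genes, 24.9% were higher and 29.4% lower at 1 h, 42% and 45.9% at 4 h, and 41.3% and 48.1% at 8 h, so most of the table moved at the later times. The median log2 fold change of the 70 was -0.09, -0.16 and -0.24 at the 3 times, beside 0.01, -0.05 and -0.11 for all genes. Without scaling factors the counts were 10 higher and 49 lower at 4 h, and 20 and 45 at 8 h. Only 4 were higher at 1 h when replicate 1 was left out, and 4 when replicate 3 was. Genes below were taken by a fixed rule of at most 2 per list and time, called there with 4 of 4 libraries apart; where such a gene lay apart in the other direction at another time, that value is given too. Further times in the same direction are mostly left out, so a gene given at 1 time may have lain apart at others too. For example, TNFAIP3 and TRAF6, given only at 1 h, also lay below DMSO without overlap at 4 h. RBCK1, given only at 4 h, also lay above DMSO without overlap at 1 and 8 h. Adjusted p-values in the paragraphs that follow are from the same edgeR test.

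**Figure D4:**
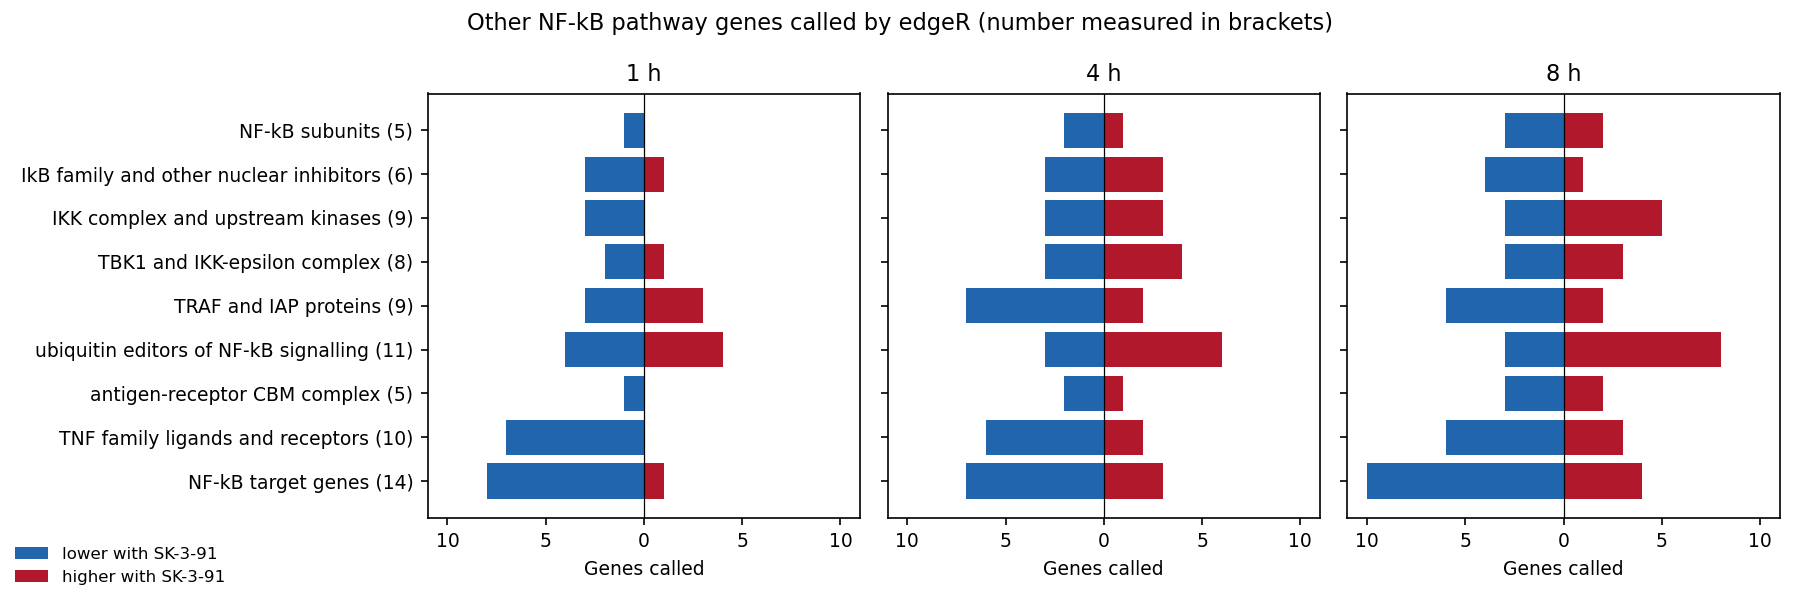
Number of genes called by edgeR in each of 9 NF-kB pathway lists, lower with SK-3-91 to the left in blue and higher to the right in red, at 1, 4 and 8 h; the number of measured genes is in brackets and some genes stand in more than 1 list. At 1 h 7 of 10 TNF family ligands and receptors and 8 of 14 NF-kB target genes were lower, beside 29.4% of all genes. Ubiquitin editors have 8 of 11 higher at 8 h, beside 41.3% of all genes. Without scaling factors 6 of these 11 were higher and 4 lower at 8 h.

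Of the 5 NF-kB subunit genes, 0 were higher and 1 lower at 1 h, 1 and 2 at 4 h, and 2 and 3 at 8 h, with median log2 fold changes of 0.02, -0.01 and -0.64. At 4 h 0 were higher and 3 lower without scaling factors. RELA, the p65 subunit of the common dimer, averaged 70.9 ± 8.8 CPM with SK-3-91 and 146 ± 6.8 CPM with DMSO at 8 h (SD, n = 4 each), a log2 change of -1.05 ± 0.06 (adjusted p = 2.01e-20). It was as low at 4 h, at -1.04 ± 0.05. NFKB2, the p100 precursor of the non-canonical branch, changed by -1.19 ± 0.11 at 8 h. REL, the subunit c-Rel, was lower at 1 h, at -0.38 ± 0.09, and higher at 4 h, at 0.23 ± 0.10 (adjusted p = 0.0297). At 8 h REL averaged 14.6 ± 0.68 CPM with SK-3-91 and 8.36 ± 0.77 CPM with DMSO, a log2 change of 0.81 ± 0.10 (adjusted p = 1.95e-09). The 4 h call was lost without scaling factors, where the value was -0.07, with upper-quartile factors (0.17) and without replicate 1 (0.24), replicate 2 (0.24) or replicate 3 (0.12). REL shares 45.2% of its 32-base words with other genes, so its counts are uncertain.

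Among 6 further inhibitors of the IkB type or in the nucleus, 1 was higher and 3 lower at 1 h, 3 and 3 at 4 h, and 1 and 4 at 8 h, with medians of -0.31, -0.05 and -0.24. Without scaling factors 0 were higher and 3 lower at 4 h (median -0.35), and with RLE factors 1 and 2 at 8 h. The 1 higher at 1 h was lost without replicate 1, 3 or 4. NFKBID, a nuclear IkB, averaged 2.75 ± 0.54 CPM with SK-3-91 and 7.18 ± 0.80 CPM with DMSO at 4 h, a log2 change of -1.38 ± 0.16 (adjusted p = 1.17e-10). It had changed by -1.07 ± 0.14 at 1 h, close in size to NFKBIA and NFKBIE. NKIRAS1 and NKIRAS2 encode small Ras-like proteins that bind IkBs. NKIRAS1 was lower at 1 h (-1.38 ± 0.17) and higher at 8 h, where it averaged 10.7 ± 0.92 CPM with SK-3-91 and 3.77 ± 0.31 CPM with DMSO (log2 change 1.51 ± 0.14). NKIRAS2 was lower at 4 and 8 h, by log2 changes of -0.92 ± 0.05 and -0.96 ± 0.05. NKIRAS1 shares 13% of its exon bases with genes on the opposite strand, and the strand setting of the counts is not known.

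The IkB kinase complex and its upstream kinases, 9 genes measured, had 0 higher and 3 lower at 1 h, 3 and 3 at 4 h, and 5 and 3 at 8 h, with medians of -0.03, -0.05 and 0.34. Without scaling factors the calls were 1 and 6 at 4 h and 3 and 4 at 8 h, where the median turned to -0.087. MAP3K14, the NIK kinase that cIAP2 and its partners keep at low levels, averaged 7.76 ± 0.63 CPM with SK-3-91 and 20.6 ± 0.73 CPM with DMSO at 1 h, a log2 change of -1.41 ± 0.08 (adjusted p = 2.28e-18). It stood at -1.83 ± 0.09 at 4 h. RIPK1, the scaffold kinase that cIAP2 ubiquitinates, was lower at each time, with log2 changes of -0.59 ± 0.05, -1.54 ± 0.06 and -1.76 ± 0.07. TAB2, which holds the TAK1 kinase to ubiquitin chains, was lower at 1 h (-0.49 ± 0.04) and higher at 4 h (0.64 ± 0.04). At 8 h it averaged 638 ± 37 CPM with SK-3-91 and 169 ± 7.7 CPM with DMSO (log2 change 1.92 ± 0.04).

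For the TBK1 and IKK-epsilon complex, the setting in which IKBKE and TANK work, 8 genes were measured. Of them 1 was higher and 2 lower at 1 h, 4 and 3 at 4 h, and 3 and 3 at 8 h, and without scaling factors 1 and 6 at 4 h and 2 and 5 at 8 h. The medians were -0.06, -0.02 and 0.06, and that at 8 h was -0.37 without scaling factors and -0.10 with upper-quartile factors. MAVS, the mitochondrial adaptor that relays RNA sensing to both kinases, averaged 112 ± 6.0 CPM with SK-3-91 and 318 ± 15 CPM with DMSO at 8 h, a log2 change of -1.51 ± 0.04 (adjusted p = 2.39e-29), and stood at -1.63 ± 0.04 at 4 h. TICAM1, the adaptor TRIF of Toll-like receptors, was lower at 1 h (-1.01 ± 0.09). IRF3, a transcription factor that both kinases activate, was higher at 1 h (0.32 ± 0.05) and lower at 8 h, at 40.6 ± 2.2 CPM with SK-3-91 and 62.8 ± 4.8 CPM with DMSO (log2 change -0.63 ± 0.06). Its 4 h value, 0.18 ± 0.05, reversed to -0.12 without scaling factors. AZI2, another adaptor of TBK1, was higher at 4 and 8 h (0.65 ± 0.06 and 1.35 ± 0.05), but 55.4% of its exon bases lie opposite another gene and its counts are uncertain.

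TRAF and IAP genes, the relatives and partners of BIRC3, numbered 9 measured, with 3 higher and 3 lower at 1 h, 2 and 7 at 4 h, and 2 and 6 at 8 h. Their medians were -0.09, -0.71 and -0.36. The 3 higher at 1 h were 0 to 2 when any 1 replicate number was left out. TRAF4 averaged 7.91 ± 2.1 CPM with SK-3-91 and 61 ± 5.2 CPM with DMSO at 8 h, a log2 change of -2.98 ± 0.09 (adjusted p = 2.73e-28), and stood at -2.44 ± 0.08 at 4 h. TRAF2, which recruits the cIAPs to receptors, changed by -1.22 ± 0.08 at 4 h, and TRADD, which recruits TRAF2 to the TNF receptor, by -1.41 ± 0.14 at 8 h. BIRC2, which encodes the close relative cIAP1, changed by -0.33 ± 0.06 at 1 h, beside -1.25 for BIRC3. At 8 h BIRC2 was higher, at 150.5 ± 8.4 CPM with SK-3-91 and 58.7 ± 1.6 CPM with DMSO (log2 change 1.36 ± 0.05), beside -0.29 for BIRC3. TRAF6, of the Toll-like and interleukin-1 receptor branch, changed by -1.08 ± 0.06 at 1 h.

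Ubiquitin editors, which build or remove the chains that carry the signal, had 4 higher and 4 lower at 1 h, 6 and 3 at 4 h, and 8 and 3 at 8 h among 11 measured, with medians of -0.03, 0.21 and 0.56. Without scaling factors the calls were 4 and 6 at 4 h and 6 and 4 at 8 h, with medians of -0.091 and 0.13. At 1 h they were 5 and 2 with RLE factors, 2 and 2 without replicate 1 and 2 and 3 without replicate 3. SPATA2, which ties the deubiquitinase CYLD to the linear-ubiquitin ligase, was lower at 1 h (-0.49 ± 0.06) and higher at 4 and 8 h. At 8 h it averaged 241 ± 20 CPM with SK-3-91 and 55.5 ± 1.2 CPM with DMSO, a log2 change of 2.11 ± 0.05 (adjusted p = 1.98e-31). RBCK1, a subunit of that ligase, was higher at 4 h (0.78 ± 0.05). ITCH, a ligase that works with the editor A20, was higher at 8 h (1.16 ± 0.04). It was slightly lower at 1 h (-0.11 ± 0.04), a call lost with RLE factors, with DESeq2 and without replicate 1 or 2, and slightly higher at 4 h (0.21 ± 0.04), which reversed to -0.091 without scaling factors. TNFAIP3, which encodes A20 and like NFKBIA is induced by NF-kB to end the response, was lower at 1 h, at 37.2 ± 1.3 CPM with SK-3-91 and 54.3 ± 3.0 CPM with DMSO (log2 change -0.54 ± 0.05). The antigen-receptor complex of CARD, BCL10 and MALT1 proteins had 0 higher and 1 lower at 1 h, 1 and 2 at 4 h, and 2 and 3 at 8 h among 5 measured, with medians of -0.09, -0.13 and -0.36. Without scaling factors 1 was higher and 4 lower at both 4 and 8 h. MALT1, its protease, was lower at 4 and 8 h (-1.19 ± 0.09 and -1.77 ± 0.11), and BCL10, its adaptor, was lower at 1 h (-0.32 ± 0.06) and higher at 4 and 8 h (0.49 ± 0.06 and 0.74 ± 0.06). PDPK1, a kinase upstream of that complex, was lower at 4 h (-0.91 ± 0.06), with 30.2% of its 32-base words shared with other genes and 23.7% of its exon bases opposite another gene, so its counts are uncertain.

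TNF family ligands and receptors, which feed the pathway, were in the table for 10 of 31 genes. Of these 0 were higher and 7 lower at 1 h, 2 and 6 at 4 h, and 3 and 6 at 8 h, with medians of -0.30, -1.43 and -1.30. TNFRSF8, the receptor CD30, averaged 2.59 ± 0.46 CPM with SK-3-91 and 25.3 ± 0.37 CPM with DMSO at 4 h, a log2 change of -3.28 ± 0.11 (adjusted p = 6.95e-27), and stood at -3.08 ± 0.13 at 8 h. Its ligand gene TNFSF8 was lower at 1 h (-0.90 ± 0.16), as was TNFSF10, the death ligand TRAIL (-1.08 ± 0.18). Both lay below DMSO without overlap at 4 and 8 h too. At 4 h TNFSF8 had 0.10 to 1.25 CPM with SK-3-91 and 3.38 to 4.002 CPM with DMSO. TNFSF10 then had 0.42 to 0.84 CPM with SK-3-91 and 4.46 to 5.44 CPM with DMSO. TNFSF13B, the B-cell factor BAFF, was barely counted in DMSO, at 0.20 to 0.26 CPM per library at 8 h, and reached 37.7, 32.8, 35.4 and 47.4 CPM with SK-3-91, the highest single change named here (log2 7.25 ± 0.20, adjusted p = 1.31e-30).

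NF-kB target genes other than the 5 were in the table for 14 of 32. Of these 1 was higher and 8 lower at 1 h, 3 and 7 at 4 h, and 4 and 10 at 8 h, with medians of -0.23, -0.31 and -0.46. At 4 h without scaling factors 1 was higher and 11 lower, and with any 1 replicate number left out 1 or 2 were higher. The 10 lower at 8 h were 7 with RLE factors and without replicate 1 or 4. The 1 higher at 1 h was lost without scaling factors and without replicate 1 or 2. IRF1, an interferon-response transcription factor, averaged 36.8 ± 1.3 CPM with SK-3-91 and 115 ± 7.6 CPM with DMSO at 1 h, a log2 change of -1.64 ± 0.05 (adjusted p = 6.94e-26), and had the same value, -1.64 ± 0.05, at 4 h; 22.0% of its exon bases lie opposite another gene, so its counts are uncertain. CD69, an early activation marker of T cells, was lower at each time, with log2 changes of -0.56 ± 0.10, -2.24 ± 0.11 and -2.70 ± 0.12. The gap widened from both sides. CD69 in DMSO went from 11.1 to 14.7 CPM at 1 h to 30.5 to 34.1 CPM at 8 h. With SK-3-91 it went from 7.22 to 10.1 CPM to 3.45 to 5.72 CPM. CD83, a surface marker of activated lymphocytes and dendritic cells, averaged 4.47 ± 0.59 CPM with SK-3-91 and 32.6 ± 0.96 CPM with DMSO at 8 h (log2 change -2.86 ± 0.10). In their promoters and those of the other measured pathway genes, 22 of 99 windows (22.2%) held a kappaB match and 11 (11.1%) held 2 or more.

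In DMSO alone, 16 of the 70 rose and 13 fell between 4 h and 1 h, and 18 rose and 10 fell between 8 h and 4 h. The shares among all genes were 16% higher and 19.1% lower for the first step and 15.9% and 14.8% for the second.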

How the data were processed

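Total RNA of MOLT4 cells gave 24 libraries, read from one end on a BGISEQ-500 instrument, per the labels' protocols. The authors deposited raw counts per Entrez gene for 9822 genes, and edgeR and build hg19 are named in the submitters' processing notes. The sources used here do not give the aligner, counter, strand setting or annotation. A second deposited table holds log2 values that were a straight line in the count once raised as a power of 2 (largest gap 3.9e-07%), with 10.9 to 11.5 CPM added and no gene length. The table had been restricted before deposit, with a lowest mean count of 32.04.

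Counts were fitted with edgeR 4.0.16 in R 4.3.3 (TMM, filterByExpr, which removed 0 genes, 6 group means, quasi-likelihood F tests, Benjamini-Hochberg at 0.05 over all genes). The common coefficient of variation was 0.0422. Depth was 6.863 to 14.63 megareads counted, which limits precision for genes under about 30 reads. On simulated data for SK-3-91 against DMSO at 1 h over 9822 genes, 95 of 100 genes changed 1.5-fold and 100 of 100 changed 2-fold were recovered, with 14 false calls. Unlike the data, the simulation changed only these genes, as many up as down. Every other gene had the same mean in all 6 groups, with a spread taken from the fit. It therefore does not show how scaling and calls behave when most of the table moves. Replicate pairs differed beyond counting noise (chi-square per degree of freedom 1.63 to 7.82 over 36 pairs), so none looked like 1 library deposited again.

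The 5 genes, the pathway lists and the alternatives were chosen with earlier results of these data known. Besides the 5, the text names from each list and time up to 2 called genes with the largest absolute change, at least 2 CPM in the higher group and no overlap between groups, and for each of the 5 the 3 nearest genes by pattern. Values of the list genes at further times were added, after they were seen, where their libraries lay apart in the opposite direction. Those of TNFSF8 and TNFSF10 after 1 h, in the same direction, were added likewise. Shared 32-base words and exons on the opposite strand were taken from GENCODE release 29. A share of 20% or more is given as uncertain beside the gene. IRF3 (19.3%), TRAF4 (16.9%), NKIRAS1 (13%) and MAP3K14 (12.3%) have smaller shares opposite other genes, and NFKBIA, NFKBIE, BIRC3, IKBKE and TANK have 4.12% or less. Alternatives were RLE, upper-quartile and no scaling factors, no filter, DESeq2 1.42.0, limma-trend (limma 3.58.1) on the deposited log2 values, a replicate block, fits of 2 groups, each replicate number left out, and, added after seeing the data, SK-3-91 at 8 h replicate 3 left out.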

Additional observations from a re-analysis of the deposited data

Results flagged for a closer look

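In IKBKE and TANK, every SK-3-91 library moved one way from DMSO at one time and the other way at another. For IKBKE the response, SK-3-91 over DMSO in log2, changed by -1.01 from 1 h to 4 h and by -2.99 from 1 h to 8 h. For TANK it was 0.71 higher at 8 h than at 1 h and 0.93 higher at 8 h than at 4 h, and without scaling factors the 8 h groups overlapped. For both genes the difference was not tested, since these responses chose them. IKBKE at 1 h also overlapped without scaling factors.

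Of the pathway genes named by the rule, 8 lay on opposite sides of DMSO at different times, and they are listed for that reason. The edgeR test of the difference, adjusted over all genes, called each, but that choice made this outcome close to fixed in advance. Its p-values are printed as description and add no support. The share of all genes that turned in this way was not counted. How common such turns are is therefore not known, and nothing is read from their number, here or for IKBKE and TANK. BCL10 was 0.81 higher in its response at 4 h than at 1 h (edgeR adjusted p = 3.7e-12) and 1.06 higher at 8 h than at 1 h (edgeR adjusted p = 1.3e-15). BIRC2 was 1.69 higher at 8 h than at 1 h (edgeR adjusted p = 2.84e-22), and NKIRAS1 2.88 higher (edgeR adjusted p = 4.75e-15). SPATA2 was 2.25 higher at 4 h than at 1 h (edgeR adjusted p = 1.42e-25) and 2.60 higher at 8 h than at 1 h (edgeR adjusted p = 2.57e-28). TAB2 was 1.13 higher at 4 h than at 1 h (edgeR adjusted p = 1.84e-19) and 2.41 higher at 8 h than at 1 h (edgeR adjusted p = 7.89e-31). ITCH was 0.32 higher at 4 h than at 1 h (edgeR adjusted p = 1.57e-06) and 1.28 higher at 8 h than at 1 h (edgeR adjusted p = 1.88e-23). REL was 0.60 higher at 4 h than at 1 h (edgeR adjusted p = 0.000101) and 1.18 higher at 8 h than at 1 h (edgeR adjusted p = 2.84e-10). IRF3 went the other way, with a difference of -0.95 between 8 h and 1 h (edgeR adjusted p = 7.88e-15) and of -0.81 between 8 h and 4 h (edgeR adjusted p = 4.82e-12). The 4 h directions of REL, ITCH and IRF3 were not kept without scaling factors. Of the 30 groups of 4 libraries of the 5 genes, 0 held a library that stood apart by Dixon's test, where chance gives about 1 in 20.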

How the results depend on the processing

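Without scaling factors the log2 fold changes at 4 h were -0.77 for NFKBIA, -3.41 for NFKBIE, -1.28 for BIRC3, -1.14 for IKBKE and -0.86 for TANK, and at 8 h -1.01, -2.75, -0.72, -3.25 and, reversed, -0.059. All genes then split 2871 higher and 5752 lower at 4 h (4121 and 4511 with TMM), 2778 and 6145 at 8 h (4060 and 4723), and 1266 and 1829 between 8 and 4 h of DMSO (1563 and 1456). Upper-quartile factors gave -0.74 for NFKBIA and 0.20 for TANK at 8 h. On the deposited log2 values, whose added constant shrinks low genes by construction, limma-trend gave at 1 h -0.80 for NFKBIA, -0.44 for NFKBIE, -0.70 for BIRC3 and -0.25 for TANK, at 4 h -1.09 for NFKBIE, -0.70 for BIRC3 and -0.64 for IKBKE, and at 8 h -0.95 for NFKBIE, -1.27 for IKBKE and, reversed, -0.041 for TANK. Higher pathway genes at 4 h numbered 10 both there and without factors, beside 23. At 4 h REL reversed to -0.073 without factors and to -0.025 on the log2 values, ITCH to -0.091 and -0.087, and IRF3 to -0.12 and -0.0999, and NFKBIA between 8 and 4 h of DMSO, not called, to -0.0012. BIRC3 in that step gave 0.18 (edgeR adjusted p = 0.0428) when 2 groups were fitted. With 1 replicate number left out, higher pathway genes at 1 h ranged from 4 to 7 (9 with all), and calls between 8 and 4 h of DMSO from 1018 to 1436 higher (lowest without replicate 1) and 964 to 1290 lower (lowest without replicate 2). In that step NFKBIA ranged from -0.019 to 0.078, NFKBIE from -0.087 to 0.047, BIRC3 from 0.13 to 0.26 and IKBKE from -0.021 to 0.063. Where no construction is named, the cause was not tested. Within a time, replicate numbers did not pair SK-3-91 with DMSO libraries (12 correlations of deviations, -0.12 to 0.02). Pairing of the same replicate number across times was not examined. The replicate block gave 9 higher and 29 lower pathway genes at 1 h, 23 and 33 at 4 h, and 27 and 38 at 8 h. Under 30 reads, as for NFKBIE at 4 and 8 h and IKBKE at 8 h with SK-3-91, depth limits how finely such levels can be ranked.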
